A study of Danio rerio with 4 samples.

Results

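The complement genes c3a.1, c6.2 and c7b of the zebrafish were examined across the 4 arrays of a study of embryos that express the oncogene NUP98-HOXA9, a gene fusion known from human myeloid leukaemia. Their 6 probes were found by symbol among 16810 named probes, which stand for 9665 named genes. There were 3 probes for c3a.1, 2 for c6.2 and 1 for c7b. The probes of c3a.1 and c6.2 were matched through their transcript records, while the probe of c7b carries the older symbol c7, which RefSeq lists as a synonym of c7b alone. The sequence record of the c7b probe was not matched, so its naming rests on that symbol, and the gene c7a had no named probe. c3a.1, c6.2 and c7b were picked with their ratios in this same comparison already known, so their values are given as a description, with no test.

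Complement is a set of plasma proteins that marks and lyses foreign cells. The classical and lectin pathways start when C1q, collectins or lectins bind a surface, the alternative pathway amplifies the reaction with factor B, factor D and properdin, and all of them cut the central protein C3. After C5 is cut, C6 and C7 join it, followed by C8 and C9, to form the membrane attack complex that opens a pore in the target membrane. c3a.1 is one of several C3 genes of the zebrafish, c6.2 encodes a C6 and c7b a C7. In adult vertebrates the liver makes most plasma complement, and macrophages make some components too.

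Whole embryos of both groups came from fish with the transgene Tg(spi1::lox-eGFP-lox::NHA9), in which the spi1 promoter, active in myeloid cells, reads into a floxed eGFP cassette that precedes NUP98-HOXA9. NHA9 embryos came from an outcross of that line to Tg(hsp70::Cre) fish, in which heat induces Cre and Cre removes the cassette. lGl embryos came from an outcross to AB wild-type fish and kept the cassette. Both groups were heat-shocked at 37 °C for 1 hour at 24 hours post-fertilization, kept at 28 °C, and gave RNA at 28 hours post-fertilization, 4 hours post heat-shock. Cre, the second parent and the active fusion gene differ between the groups together, so their effects cannot be told apart. The number of embryos behind an extract, the share of them that recombined and the founder lines are not stated in the labels, and no probe of the fusion gene was analysed here.

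Each group had 2 RNA extracts. The extracts of the same number were hybridised together, on a forward array with NHA9 in Cy5 and on a dye-swap array with NHA9 in Cy3, and an array and its dye swap were averaged to 1 replicate (n = 2). The labels call the replicates biological without naming clutches, so the spread between them may be in part technical. The deposited values are log ratios, taken here as log2, and give no level in either group. The sources used here state neither their base nor their direction. An array and its dye swap had positive correlations across probes (r of 0.747 for replicate 1 and 0.466 for replicate 2, probes not being independent), so the 4 columns were read as one contrast. The forward arrays of the replicates correlated at 0.449 and their dye swaps at 0.387. A forward array and the swap of the other replicate correlated at only 0.11 in either pairing. Part of the signal thus went with the orientation. Values spread wider on the forward and swap arrays of replicate 2 (scaled median absolute deviation of 0.68 and 0.60) than on those of replicate 1 (0.38 and 0.36). NHA9 over lGl is the likely direction, from the titles and dyes of the forward arrays, and every sign below would turn if the deposited ratio were the reverse. If the columns were instead deposited by dye, the ratios of the 3 genes would come to 0.15 for c3a.1, 0.093 for c6.2 and 0.0005 for c7b. Since RNA came from whole embryos, more cells of a type and more RNA per cell cannot be told apart. A limma fit over 13261 items, the named genes and 3596 unnamed probes, gave all items a common standard error of 0.30.

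The C7 gene c7b had the highest ratio of the 3. Its single probe, A_15_P109600, read 2.16 on the forward array and 2.17 on the dye swap of replicate 1. In replicate 2 it read 1.55 on the forward array and 1.53 on the dye swap. All 4 values lay well above 0, the orientations of a replicate differed by little, and replicate 1 was the higher on both. The mean was 1.85 ± 0.45 (SD, n = 2) on the log2 scale, a 3.61-fold higher signal in NHA9 embryos if the base is 2. By its mean c7b stood at rank 52 from the top of the 13261 items, and at rank 79, 63, 220 and 88 on the forward and swap arrays of replicate 1 and then of replicate 2.

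The C6 gene c6.2 was measured by 2 probes. Probe 1 (A_15_P628085) read 1.04 and 1.08 on the forward and swap arrays of replicate 1, and 0.94 and 1.24 on those of replicate 2. Probe 2 (A_15_P640358) read 1.40 and 1.15 in replicate 1, and 1.58 and 0.74 in replicate 2. The 8 values were all positive, and probe 2 differed more between the orientations of replicate 2 than probe 1 did. Averaged over probes, c6.2 was at 1.17 in replicate 1 and 1.12 in replicate 2, with a mean of 1.14 ± 0.03 (SD, n = 2), or 2.21-fold. That SD comes from 2 values and is far below the pooled standard error of 0.30, so it should not be read as the precision of the ratio. The mean placed c6.2 at rank 179 of 13261. The means of its probes were 0.14 apart on the log2 scale, and 58.2% of the 3038 genes with 2 probes were at least that far apart.

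The C3 gene c3a.1 had 3 probes that did not read alike. Probe 1 (A_15_P133681) read 2.41 and 2.17 on the forward and swap arrays of replicate 1, but 0.66 and 0.69 in replicate 2. Probe 2 (A_15_P135591) read −0.13 and −0.30 in replicate 1, and 0.50 and −0.02 in replicate 2. Probe 3 (A_15_P657926) read 0.15 and 0.05 in replicate 1, and 0.95 and 0.08 in replicate 2. The high values thus came from probe 1 in replicate 1, while probes 2 and 3 lay between −0.30 and 0.15 on 3 of the 4 arrays and were highest on the forward array of replicate 2. The average over all 3 probes was 0.73 in replicate 1 and 0.48 in replicate 2, with a mean of 0.60 ± 0.18 (SD, n = 2), or 1.52-fold, at rank 780. That average ranked 657 and 809 on the forward and swap arrays of replicate 1, but 1846 and 4776 on those of replicate 2. Without probe 1 it was −0.05 in replicate 1 and 0.38 in replicate 2, a mean of 0.16 ± 0.30 (n = 2). Probe 1 alone had a mean of 1.48 ± 1.14 (n = 2). The means of the 3 probes spanned 1.47 on the log2 scale, a span that only 19 of the 1062 genes with 3 probes reached (1.79%), against a median span of 0.33. The positive sign of c3a.1 on all 4 arrays is therefore a property of the average and was not shared by each probe.

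**Figure D1:**
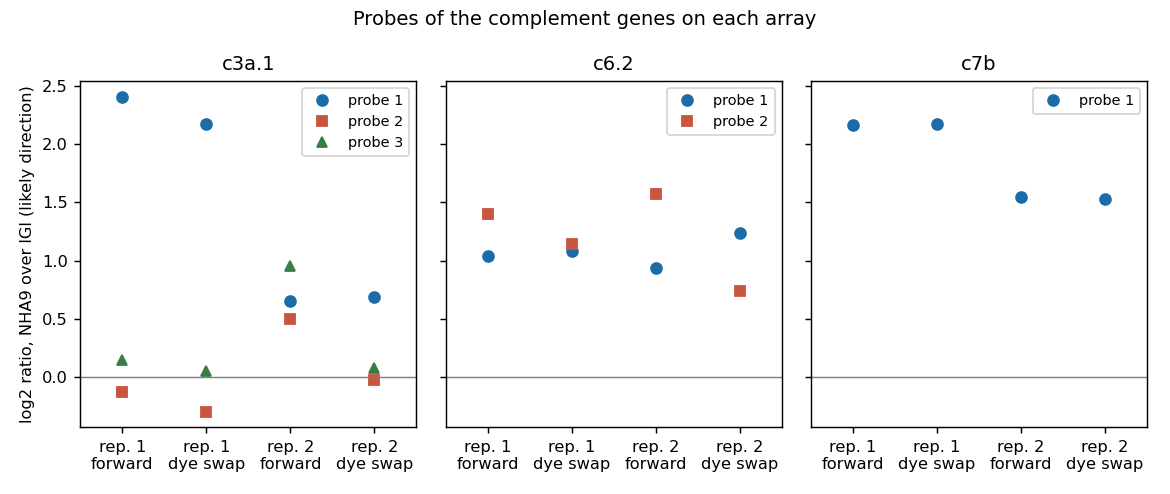
Log2 ratios of NHA9 over lGl (vertical axis, likely direction) on each of the 4 arrays for the 3 probes of c3a.1, the 2 probes of c6.2 and the probe of c7b; each point is 1 probe on 1 array. c7b and both c6.2 probes lie above 0 throughout, while c3a.1 probe 1 reads 2.41 and 2.17 in replicate 1 but 0.66 and 0.69 in replicate 2, and the other c3a.1 probes lie between −0.30 and 0.95.

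Over all items, 271 of 13261 were higher in NHA9 embryos at a limma adjusted p under 0.05 (2.04%) and 105 were lower (0.792%), and the smallest mean ratio called was 0.96 in size. A ratio above 0 on all 4 arrays, which c6.2, c7b and the average of c3a.1 had, was found for 19.4% of items. Of the 26 other complement genes measured, 3 rose (cfhl1, c3a.2 and hbl4), 0 fell and 23 did not pass. In all, 21 of the 26 had positive means, against 52.5% of all items, and 9 were positive on all 4 arrays. Their median log2 ratio was 0.20 (0.06 in replicate 1 and 0.41 in replicate 2), beside a median of 0.02 for all items. A mean ratio of 0.58 or more was reached by 6 of the 26, beside 6.37% of all items. With the replicate as a block the count was 1 in place of 3, with or without a dye term, beside 2.23% and 0.671% of all items higher, and the gene that passed was cfhl1. No gene of the receptor list, such as the C3a and C5a receptors and the integrins that bind C3 fragments, had a named probe among the deposited values.

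**Figure D2:**
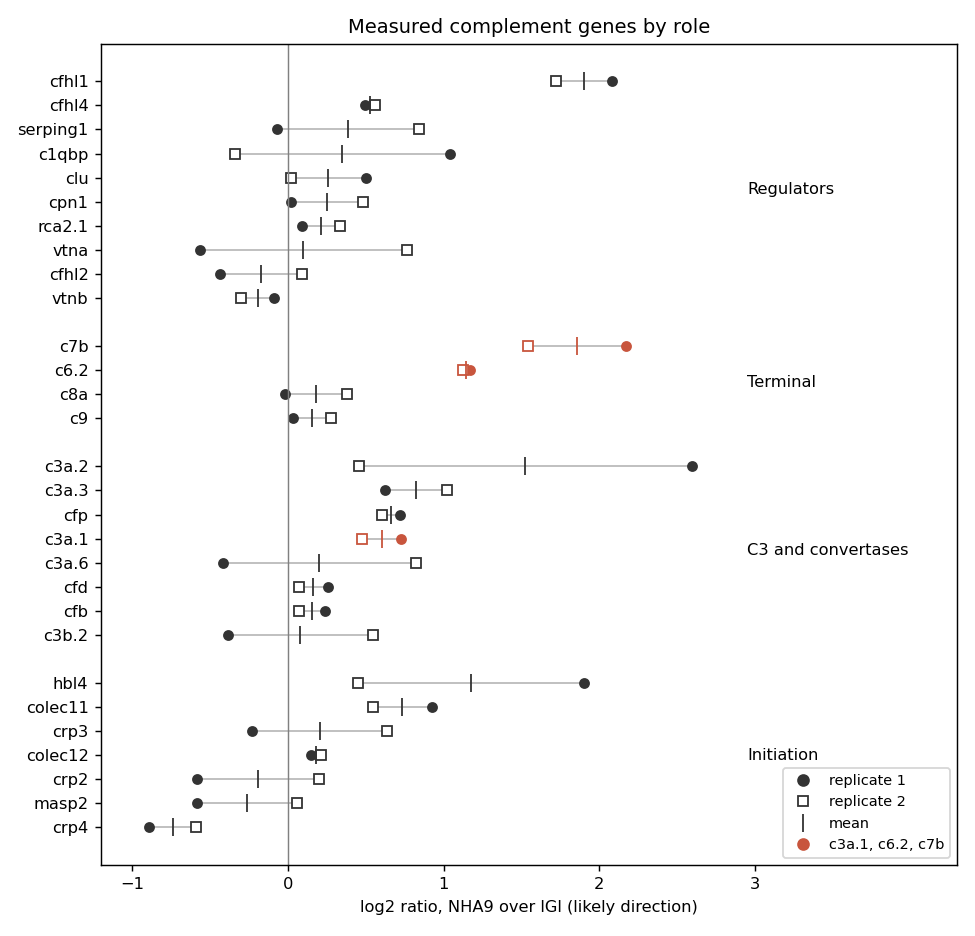
Log2 ratios of NHA9 over lGl (horizontal axis, likely direction) for the 29 measured complement genes, grouped by role; filled circles are replicate 1, open squares replicate 2, vertical ticks the mean, and c3a.1, c6.2 and c7b are in red. c7b, c6.2 and cfhl1 are far above 0 in both replicates, whereas c3a.2 and hbl4 are far higher in replicate 1 than in replicate 2.

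Among the starters of complement, 7 genes were measured, of which 1 rose and 6 did not pass. It was hbl4, a lectin gene of the mannose-binding lectin family, at 1.17 ± 1.02 (SD, n = 2; limma adjusted p = 0.00553). Its ratio was 1.90 in replicate 1 and 0.45 in replicate 2, and its 2 probes read alike within each replicate (2.03 and 1.77 in replicate 1, 0.47 and 0.43 in replicate 2). With the replicate as a block it did not pass (limma adjusted p = 0.189 without a dye term, 0.0554 with one). The collectin gene colec11, whose protein starts the lectin pathway, averaged 0.73 and did not pass (adjusted p = 0.246). Its 4 arrays read 1.11 and 0.74 in replicate 1, and 1.03 and 0.06 in replicate 2. The C-reactive protein relative crp4 was at −0.74 (adjusted p = 0.236) and negative on all 4 arrays, as 13.2% of all items were. The lectin pathway protease gene masp2 was at −0.27, from −0.58 in replicate 1 to 0.05 in replicate 2. Its orientations differed, with −0.23 and −0.94 on the forward and swap arrays of replicate 1, and 0.85 and −0.74 on those of replicate 2.

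Of the C3 family and convertase genes, 7 besides c3a.1 were measured, and all 7 had positive means, but only c3a.2 passed. c3a.2, a further C3 gene, read 2.72 and 2.47 on the forward and swap arrays of replicate 1, and 0.61 and 0.30 on those of replicate 2. Its values were high in replicate 1 and low in replicate 2, as those of c3a.1 probe 1 and of hbl4 were. The mean of c3a.2 was 1.53 ± 1.51 (SD, n = 2; limma adjusted p = 4.41e-05), and with the replicate as a block the adjusted p was 0.214 without a dye term and 0.053 with one. The SDs of c3a.2 and hbl4 between replicates exceeded the pooled SD of 0.43 on which the limma test rests. c3a.3 averaged 0.82 ± 0.28 and did not pass (adjusted p = 0.14). Its 2 probes differed, with means of 0.21 and 1.43, and the second of them was the higher in replicate 2 (1.67, against 1.19 in replicate 1). c3a.6 and c3b.2 were negative in replicate 1 (−0.42 and −0.39) and positive in replicate 2 (0.82 and 0.55). The C3 genes are close relatives, and whether their probes share signal was not tested, so the split of signal among c3a.1, c3a.2 and c3a.3 is uncertain.

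**Figure D3:**
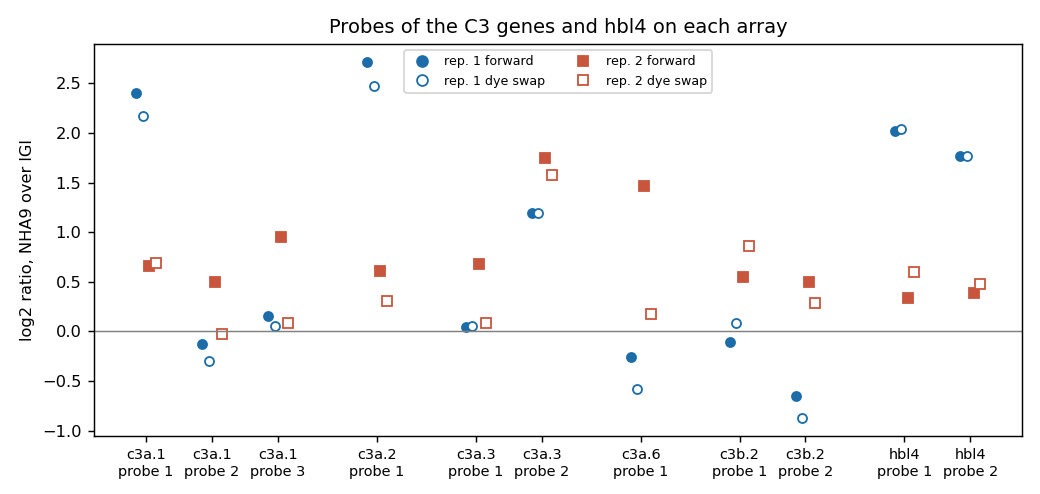
Log2 ratios (vertical axis) of every probe of the measured C3 genes and of hbl4 on the 4 arrays; circles are replicate 1, squares replicate 2, filled symbols forward arrays and open symbols dye swaps. c3a.1 probe 1, the c3a.2 probe and both hbl4 probes lie above 1.7 in replicate 1 and below 0.7 in replicate 2, while probe 2 of c3a.3 is higher in replicate 2.

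None of the alternative pathway genes cfp, cfb and cfd passed. cfp, which encodes properdin, the stabiliser of the alternative convertase, was at 0.66 ± 0.08 (SD, n = 2), with 0.72 in replicate 1 and 0.60 in replicate 2, and did not pass (limma adjusted p = 0.355). cfb, for factor B, was at 0.15, and cfd, for the protease that cuts factor B, at 0.16.

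The terminal genes did not share one ratio. As c6.2 and c7b were picked with their ratios known, no conclusion about the terminal genes as a group is drawn from that gap. Besides c6.2 and c7b, the deposited values held named probes for c8a and c9. c8a, for a chain of C8, was at −0.02 in replicate 1 and 0.38 in replicate 2, a mean of 0.18 ± 0.28 (SD, n = 2). c9, for the protein that forms most of the pore, was at 0.03 and 0.28, a mean of 0.15 ± 0.17, and neither gene passed (limma adjusted p of 0.946 and 0.955). The orientations of c9 differed in replicate 2, with 0.75 on the forward array and −0.19 on the dye swap. The ratio of c7b exceeded the gene average of c6.2 on all 4 arrays, though on the forward array of replicate 2 probe 2 of c6.2 (1.58) read above c7b (1.55). In assembly GRCz12tu c7b and c6.2 are next to each other among protein-coding genes, and their annotated spans overlap. Of the protein-coding genes near them, rnf180b, a ubiquitin ligase gene at 0.40, oxct1b, a ketone body enzyme gene at 0.02, ghrb, a growth hormone receptor gene at −0.20, and eif4ebp1, a translation repressor gene at −0.27, were measured and did not pass. c6.1, a further C6 gene on the same side as oxct1b and ghrb, had no named probe. Around c3a.1, the measured genes crb3b and zgc:65894 lie between it and c3a.2 and were at −0.01 and −0.13.

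Among 10 regulators of complement, 1 rose and 9 did not pass. cfhl1, a factor H-like gene, read 2.28 and 1.88 on the forward and swap arrays of replicate 1, and 1.94 and 1.51 on those of replicate 2. Its mean was 1.90 ± 0.26 (SD, n = 2; limma adjusted p = 5.89e-08), or 3.74-fold, and it passed with the replicate as a block as well (adjusted p = 0.013 without a dye term, 0.000366 with one). Factor H itself holds the alternative convertase in check. The ratio rests on 1 probe, as that of c7b does, and lay close to it. The related genes cfhl4 and cfhl2 were at 0.53 and −0.17. serping1, for the C1 inhibitor, was at 0.39, from −0.07 in replicate 1 to 0.84 in replicate 2. Of the vitronectin genes, whose product blocks the membrane attack complex in mammals, vtna was at 0.10 and vtnb at −0.19, the lowest of the group.

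**Figure D4:**
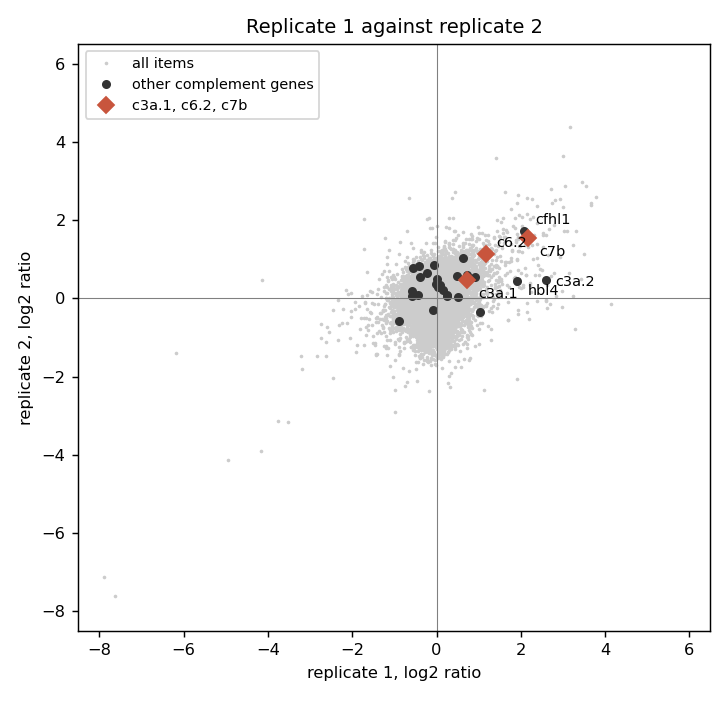
Log2 ratio in replicate 1 (horizontal axis) against replicate 2 (vertical axis) for 13261 items (grey), the 26 other complement genes (black) and c3a.1, c6.2 and c7b (red). c7b and cfhl1 lie close together at the upper right, c6.2 lies at 1.17 and 1.12, and c3a.2 and hbl4 lie far to the right with replicate 2 values of 0.46 and 0.45.

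Genes with the most similar ratios on the 4 arrays were sought among the 9662 other named genes by Euclidean distance over the 4 values. Nearest to c7b were abi1a, an actin regulator gene, at a distance of 0.21, the DNA repair gene swi5 at 0.37 and the alkaline phosphatase gene alpi.2 at 0.39. Nearest to c6.2 were cc2d1b at 0.16, the cytochrome P450 gene cyp2aa4 at 0.20 and tmem254 at 0.21. Nearest to c3a.1 were the ribonucleotide reductase gene rrm2b at 0.07, the chemokine receptor gene cxcr3.2 at 0.12 and gfus.2, for a GDP-fucose synthase, at 0.14. No complement gene was among these 9, but only 26 of the 9662 genes searched were other complement genes of the list, so that absence says little. The distances use gene averages, and for c3a.1 that is the average of 3 probes that did not read alike. Distances of single probes were not computed. Between the members the distance was 1.11 for c3a.1 and c6.2, 1.55 for c6.2 and c7b and 2.56 for c3a.1 and c7b. With 4 arrays of 2 pairs of extracts, likeness says only that the ratios were of similar size.

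Genes of cells that make or carry complement were set beside these values. Of 31 measured liver and yolk syncytial layer genes, 0 passed in limma in either direction, 14 had positive means and the median was −0.01 (−0.06 in replicate 1 and 0.01 in replicate 2). On all 4 arrays 5 of them were positive and 4 negative. In the blocked fit with a dye term 1 of the 31 passed. At the defining markers, the apolipoprotein gene apoa1a was at −0.30, the transferrin gene tfa at −0.01 and the hepatic factor gene hnf4a at 0.63, none past the threshold, and fabp10a had no named probe. These means average orientations that differed. apoa1a read −0.06 and 0.57 on the forward arrays of replicates 1 and 2, but −0.99 and −0.72 on their swaps. hnf4a read 0.74 and 1.65 against 0.17 and −0.06, and tfa −0.15 and 0.61 against −0.45 and −0.06. The list median was −0.02 and 0.19 on the forward arrays, and −0.13 and −0.06 on the swaps. The macrophage list had 18 measured genes, of which 14 were positive on all 4 arrays, 2 rose and 16 did not pass, and the median was 0.55 (0.64 for replicate 1, 0.49 for replicate 2). Those that rose were mpeg1.1, a perforin-like gene of macrophages, at 1.08 (limma adjusted p = 0.0158) and slc7a7, for an amino acid transporter, at 1.16 (limma adjusted p = 0.0064), the latter with 0.63 in replicate 1 and 1.69 in replicate 2. Neither passed in the blocked fit without a dye term, nor after arrays were scaled to a common spread, each of which left 0 macrophage genes past the threshold. In the blocked fit with a dye term, a setting chosen after seeing the data, 3 macrophage genes passed as higher. spi1b, a myeloid transcription factor gene, was at 0.46 and did not pass. Of the 18 macrophage genes 16 had positive means, the others being lygl1 at −0.29, negative on all 4 arrays, and cyba at −0.003. Of 9 neutrophil genes 3 rose, the collagenase gene mmp13a at 1.18, the lysozyme gene lyz at 1.16 and the myeloperoxidase gene mpx at 1.04, with limma adjusted p of 0.00546, 0.0067 and 0.0251. Of the 9, 7 had positive means and 5 were positive on all 4 arrays. Over all items, the shares to set beside these lists were 2.04% higher in limma and 2.23% higher in the blocked fit with a dye term. Positive means were found for 52.5% of all items, while 19.4% were positive and 13.2% negative on all 4 arrays. cebp1 was at −0.71 and cebpa at −0.16. nccrp1, with a mean of 0.90, read 2.16 in replicate 1 and −0.35 in replicate 2. In the blocked fit without a dye term, and after scaling, 0 neutrophil genes passed as higher, while 3 passed in the blocked fit with a dye term. mmp13a read 1.84 in replicate 1 and 0.51 in replicate 2. The orientations of lyz differed, with 1.71 and 1.95 on the forward arrays of replicates 1 and 2, but 0.94 and 0.03 on their swaps. The neutrophil median was higher in replicate 1 (1.24) than in replicate 2 (0.31). So were, among others, c3a.1 probe 1, c3a.2, hbl4 and c1qbp of the regulator list (1.04 against −0.34), and by less c7b, cfhl1 and colec11. By contrast, c3a.3, c3a.6, c3b.2 and the other c3a.1 probes were higher in replicate 2. With only 2 replicates, a shared order cannot tell whether the neutrophil list and any of these genes vary together. The complement gene cfd is also on the neutrophil list. The part of these cell types in the complement ratios was not tested.

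**Figure D5:**
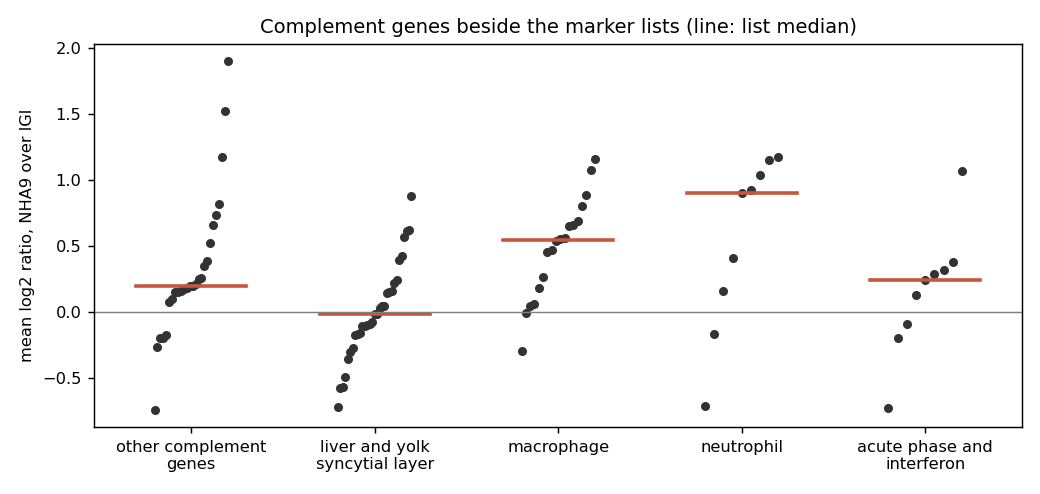
Mean log2 ratio of NHA9 over lGl (vertical axis) for each measured gene of the 26 other complement genes and of the liver and yolk syncytial layer, macrophage, neutrophil, and acute phase and interferon lists; each point is 1 gene, and the red line is the list median. The medians are 0.20, −0.01, 0.55, 0.90 and 0.24.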

How the data were processed

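Values are the log ratios the authors deposited for 20406 probes on 4 two-colour arrays, taken as log2 because they reach from −7.98 to 6.75. The sources used here give no log base, scanner, background correction, normalization or probe filter. Per the labels' protocols, cDNA was labelled directly and samples low in RNA were amplified. No spot intensity was analysed here, and the error given is that between the 2 replicates.

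Probes were named through the platform's annotation, updated with RefSeq's table for GRCz12tu (14620 by accession, 1676 by current symbol, 506 by synonym, 8 kept, 3596 unnamed). Probes of a gene were averaged, and array and dye swap were averaged to 1 replicate. The replicate mean was tested against 0 with limma 3.58.1 in R 4.3.3 (lmFit, eBayes), Benjamini-Hochberg adjusted over 13261 items, threshold 0.05. limma's prior degrees of freedom were infinite, giving a pooled SD of 0.43. The fit was checked on simulated data drawn with a common SD for all items, as the fit assumes. That check cannot speak to the uneven spread between the real replicates. Replicate numbers pair the extracts by hybridisation to the same arrays, so each ratio is within a pair.

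Members, lists and the reading of the columns were chosen with earlier results of these data known. Of 86 complement genes listed, 29 were measured. Named genes are the members, complement genes past the threshold or at 0.58 or more in size, the highest and lowest of each role, the 3 nearest genes to each member, set markers and called genes of other lists; other complement genes were added after their values were seen. Alternatives were other readings of the dyes, single orientations, replicate blocks, scaling, quantile normalization, centring, probe summaries and leaving out a replicate.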

Additional observations from a re-analysis of the deposited data

How the results depend on the processing

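Turning the dye-swap columns by dye moved c3a.1 to 0.15, c6.2 to 0.093 and c7b to 0.0005, and turned hbl4 to −0.046. It gave 1306 items higher and 678 lower, with 4 other complement genes higher and 1 lower. Of cfhl1, c3a.2 and hbl4 none passed there (limma adjusted p of 0.108, 0.279 and 0.738). The macrophage list had 3 genes higher. In that reading 8 liver and yolk syncytial layer genes were higher and 1 lower, 1 neutrophil gene was higher and 1 lower, and 0 acute phase and interferon genes were higher. The median over its probes put c3a.1 at 0.24. c6.2 was at 1.24 on forward arrays alone, 1.05 on dye swaps alone and 1.19 after scaling arrays to a common spread, changes that exceed only its small SD. Leaving out a replicate gave 0.48 to 0.73 for c3a.1, 1.12 to 1.17 for c6.2 and 1.54 to 2.17 for c7b, as values with no test. It gave 0.45 to 2.60 for c3a.2, 0.45 to 1.90 for hbl4 and 1.72 to 2.08 for cfhl1. With forward arrays alone 470 items were higher and 147 lower. In that setting 2 liver and yolk syncytial layer genes were higher, 1 neutrophil gene was lower and 0 acute phase and interferon genes were higher. With dye swaps alone 248 items were lower, among them 2 liver and yolk syncytial layer genes. A replicate block with no dye term gave 89 items higher and 25 lower, with 1 other complement gene and 0 macrophage, 0 neutrophil and 0 acute phase and interferon genes higher. The planned block with a dye term could not be fitted. With the correlation of the fit without that term (0.493), chosen after seeing the data, 296 items were higher. Among them were 1 other complement gene, 1 liver and yolk syncytial layer gene and 0 acute phase and interferon genes. The macrophage and neutrophil lists had 3 genes higher each in that fit. Scaling gave 129 items higher and 41 lower, with 1 other complement gene and 0 macrophage, 0 neutrophil and 0 acute phase and interferon genes higher; c3a.2 (1.88, limma adjusted p = 0.094) and hbl4 (1.43, adjusted p = 0.115) did not pass, and cfhl1 did. Quantile normalization gave 312 items higher, among them 1 liver and yolk syncytial layer gene. With each probe kept apart, 362 of 20406 probes were higher (1.77%) and 145 lower, and probes higher numbered 5 of 39 for the other complement genes, 5 of 34 for macrophage and 5 of 16 for neutrophil genes, with 1 neutrophil and 1 acute phase probe lower. Centring arrays on the median moved no count by over 1.5 times. Leaving out a replicate leaves no residual degrees of freedom, so it gave no counts.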

Other observations

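Of 9 measured acute phase and interferon genes, 6 had positive means, 1 rose and 8 did not pass, with a median log2 ratio of 0.24 (0.18 in replicate 1 and 0.20 in replicate 2). Over all items, 52.5% had positive means and 2.04% were higher in limma. The gene that rose was isg15, an interferon-induced ubiquitin-like gene, with ratios of 0.42 and 1.73 in the replicates (limma adjusted p = 0.0168, n = 2). It did not pass in either blocked fit, with forward arrays alone, after scaling or with the dye-swap columns turned by dye, where the list had 0 genes higher. The haptoglobin gene hp, a liver acute phase gene, stood at −0.30 in replicate 1 and at 0.78 in replicate 2. The cytokine signal genes stat3 and socs3a were at 0.32 and 0.29, and neither passed. The lowest of the list was leg1.2 at −0.73, which did not pass (limma adjusted p = 0.254). It was negative on all 4 arrays, as 13.2% of all items were. This list shares crp2 with the complement list, at −0.19.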
